A study of Mus musculus with 10 samples.

Results

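The matrix metalloproteinases and their tissue inhibitors were followed in RNA of cultured mouse aortic smooth muscle cells, as 10 genes chosen by symbol: Mmp2, Mmp3, Mmp9, Mmp11, Mmp13, Mmp14, Mmp19, Timp2, Timp3 and Timp4. All 10 were among the 36144 genes of the expression table, and 8 of them had a mean of at least 1 TPM (an abundance corrected for transcript length and scaled to the same total in every library) over the 6 RNA libraries and were tested. Mmp9 and Timp4 stayed below that level. The symbols chose the genes and no measured value did, but the choice was made with earlier results of these data known.

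The cells came from 2 groups of 8-week-old male mice. The overexpression group carried Myh11-Cre-ERT2, a Cre that is driven by a smooth muscle promoter and acts after tamoxifen, together with overexpression of Adamts7, a secreted metalloprotease of another family. The wild-type group has no driver named in its labels, so driver and overexpression cannot be told apart. The sources used here do not say which mice received tamoxifen. In the RNA data, the overexpression libraries have titles that open with WT, against a genotype label that names overexpression, and the label was followed. The aortic media was digested after removal of the adventitia, and cells were grown in serum and used between passages 2 and 7. RNA was measured in 3 libraries of each group, 1 per mouse. ATAC-seq, which reads open chromatin, covered 2 mice of each group, merged by the authors.

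Matrix metalloproteinases are zinc proteases that together can cut collagens, gelatin, elastin and proteoglycans. Most are secreted as inactive proenzymes that are opened by other proteases, while the membrane-anchored members are activated by furin inside the cell. The 4 mammalian TIMP proteins, of which 3 are described here and Timp1 is given with the wider family, block the active site one to one, and TIMP-2 also takes part in activating pro-gelatinase A at the surface. In the artery wall these enzymes are known for the breakdown of the matrix around smooth muscle cells, their migration into the intima and the thinning of plaque caps. The series title places the question in atherosclerosis and smooth muscle foam cells.

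The targeted gene followed its labels: Adamts7 stood at 98.7, 79.1 and 75.8 TPM in overexpression replicates 1, 2 and 3, against 6.08, 6.18 and 8.20 TPM in wild-type replicates 1, 2 and 3. Overexpression replicate 3 lay between the groups on the first principal component, at -0.67. The other 2 overexpression libraries lay at 18.6 and 39.4, and wild type at -20.3 to -16.8. Results are therefore given with and without replicate 3. Leaving out the overexpression library nearest to wild type favours larger differences, and calls made only without it carry that limit. All 10 smooth muscle markers were detected, and their summed level was 2684 to 4032 TPM in overexpression libraries and 2327 to 2448 TPM in wild type. Of the 10, 6 had all overexpression libraries above all wild-type libraries, where 14.3% of all genes tested did. Smtn had all of them below, and the other markers overlapped. Acta2 was the largest part of the sum, with means of 1764 TPM in overexpression and 1249 TPM in wild type. The summed level of 12 endothelial markers was 2398 to 3959 TPM in overexpression libraries and 4672 to 5188 TPM in wild type. The endothelial sum thus exceeded the smooth muscle sum in every wild-type library. It also did so in overexpression replicates 1 (3277 against 2967 TPM) and 3 (3959 against 2684 TPM), but not in replicate 2 (2398 against 4032 TPM). The 2 lists hold different genes, so their sums do not measure shares of cells. Macrophages are a known source of several of these proteases. Their markers had a sum of 1225 to 3688 TPM in overexpression libraries and 575 to 803 TPM in wild type. Of the 18 markers, 17 had all overexpression libraries above all wild-type libraries, where 14.3% of all genes tested did. The 17 include Cd163, with means of 0.035 TPM in overexpression and 0.0053 TPM in wild type. The remaining marker, Mertk, was lower in every overexpression library, with means of 77.6 TPM in overexpression and 103 TPM in wild type. Of 10 neutrophil markers, S100a9, Elane, Camp and Retnlg were listed at 0 in all 6 libraries, and the sum of the list was 0.98 to 1.56 TPM in overexpression libraries and 1.33 to 2.30 TPM in wild type. In such bulk RNA, fewer cells of a type and less RNA per cell cannot be told apart. Depth is unknown, because TPM do not hold the number of reads.

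The promoters are shown first, with the position of the genes. Mmp13 and Mmp3 lie in a run of 10 MMP genes on mouse chromosome 9 that spans 427 kb, from 7272514 to 7699585 (GRCm38.p6, the assembly behind mm10). The other 8 genes are scattered over chromosomes 2, 6, 8, 10, 11 and 14. RefSeq sequences of 300 bases, from 250 before to 50 after the annotated start, were at hand for 7 of the 10 genes, and none was at hand for Mmp2, Mmp9 and Mmp19. The sequences shown are those of the 2 cluster genes, chosen because their RNA levels were unlike, and of Mmp14. Mmp14 lies outside the cluster and was the most abundant MMP gene with a sequence at hand. Capitals mark the letters TGAGTCA or its reverse complement TGACTCA (the AP-1 motif of FOS and JUN factors), TGTGGT or ACCACA (the core of the RUNX motif) and TATAAA or TTTATA (the TATA box). Both strands were searched and no 2 marked motifs overlap.
Mmp13, chr9:7272264-7272563, plus strand: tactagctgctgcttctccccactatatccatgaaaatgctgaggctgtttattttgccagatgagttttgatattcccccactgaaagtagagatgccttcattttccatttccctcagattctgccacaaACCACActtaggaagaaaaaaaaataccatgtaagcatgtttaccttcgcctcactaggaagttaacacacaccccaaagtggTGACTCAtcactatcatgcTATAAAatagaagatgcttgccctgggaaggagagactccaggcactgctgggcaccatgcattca
Mmp3, chr9:7445572-7445871, plus strand: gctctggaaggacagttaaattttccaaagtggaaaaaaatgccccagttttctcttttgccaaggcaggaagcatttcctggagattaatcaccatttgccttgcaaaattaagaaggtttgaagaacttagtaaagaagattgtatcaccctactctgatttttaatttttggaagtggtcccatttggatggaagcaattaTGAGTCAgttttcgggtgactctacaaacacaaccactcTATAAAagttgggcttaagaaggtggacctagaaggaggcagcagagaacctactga
Mmp14, chr14:54431348-54431647, plus strand: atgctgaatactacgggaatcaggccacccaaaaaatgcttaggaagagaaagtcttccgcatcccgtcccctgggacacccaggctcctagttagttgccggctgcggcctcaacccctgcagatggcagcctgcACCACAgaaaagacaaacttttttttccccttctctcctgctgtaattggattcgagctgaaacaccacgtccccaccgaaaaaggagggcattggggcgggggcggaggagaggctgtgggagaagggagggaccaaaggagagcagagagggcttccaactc

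The Mmp13 promoter held the AP-1 letters with their first base 35 bases before the start, a TATA box 16 bases before it and the RUNX letters 118 bases before it. The Mmp3 promoter held the AP-1 letters 46 bases and a TATA box 7 bases before the start. The Mmp14 promoter held neither of those and had the RUNX letters 114 bases before the start. Over all 32851 RefSeq promoter sequences of this length, 5.20% held the AP-1 letters, 16.8% the RUNX letters and 13.6% the TATA letters. All 10 genes of the chromosome 9 run had a sequence, and the AP-1 letters were in at least 1 promoter of 7 of them. They were in none of the 12 MMP and TIMP genes outside it that had one. The promoters of Mmp11, Timp2 and Timp3 were rich in G and C, at 67.0%, 68.7% and 67.0%, against 43.7% for Mmp13 and 40% for Mmp3. A match of letters is a description of these windows and not a site of binding.

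In the authors' deposited table of ATAC-seq footprints, which scores the protection of motif sites over the whole genome and not at single genes, AP-1 motifs scored higher in overexpression. For FOS::JUN (MA0099.4) the authors' deposited table gave a mean score of 0.317 in overexpression and 0.250 in wild type, with 7813 sites called bound in overexpression and 5658 in wild type of 38809 searched. With the sign set to be positive where overexpression is higher, the change in the authors' deposited table was 0.51 to 0.66 for the 26 motifs of this motif's cluster and had a median of 0.11 over all 879 motifs. Some of the 26 have identical values, such as BATF and BATF3 at 0.57, so they are not 26 separate readings. A second FOS::JUN motif, of a different cluster, had a change of 0.21 in the authors' deposited table. For RUNX2 the authors' deposited table gave a change of 0.29, with a mean score of 0.235 in overexpression and 0.213 in wild type. The 2 mice of a group were merged in these scores, so they have no replicate error, and the state of the Mmp promoters themselves was not measured in them.

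No gene of the 10 passed the test between groups with all 6 libraries, and the largest differences belonged to Mmp19 and Mmp13. limma on log2(TPM + 1), adjusted by Benjamini-Hochberg over all 13131 genes tested, called 0 of the 8 tested members, where 2 genes, or 0.0152%, were called in all. At an unadjusted p under 0.05 stood 5 of the 8, all higher in overexpression (Mmp13, Mmp14, Mmp19, Timp2 and Timp3), where the share over all genes was 19.5%, made up of 10.6% higher and 8.94% lower. The 5 were the same genes whose 3 overexpression libraries all lay above the 3 wild-type libraries, and Mmp11 alone lay below wild type in all 3. Over all genes tested, 27.2% did not overlap between groups, 14.3% with overexpression above and 12.9% with it below. The median log2 fold change of the 8 was 0.22, against -0.01 over all genes tested. Without overexpression replicate 3, limma called Mmp19, Mmp13 and Mmp14 higher, 3 of 8, where 6.3% of genes were called, 3.99% higher and 2.31% lower. Without replicate 1 limma called 0 of the 8, where 7 of 13124 genes were called. The limma adjusted p was then 0.291 for Mmp19, 0.313 for Mmp13 and 0.296 for Mmp14. Without replicate 2 limma also called 0 of the 8, where 6 of 13104 genes were called. The limma adjusted p was then 0.174, 0.271 and 0.192 for the same genes. With libraries weighted by their spread, limma called Mmp19, Mmp13, Mmp14 and Timp2 higher and Mmp2 lower. These are 5 of 8, where 20.8% of genes were called, 11.4% higher and 9.42% lower.

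**Figure D1:**
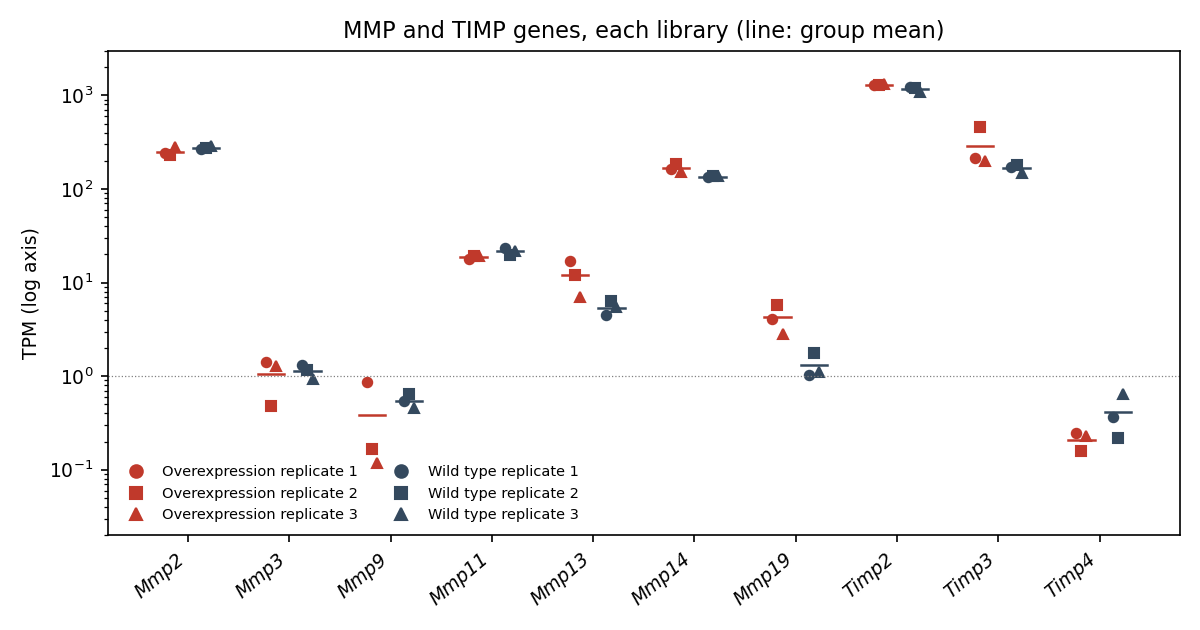
TPM of the 10 genes in each library, on a log axis, with overexpression libraries left of wild type for each gene, symbols for the replicate number and a line at the group mean. Levels run from 1305 TPM for Timp2 to 0.21 TPM for Timp4 in overexpression, and the Mmp13, Mmp14, Mmp19, Timp2 and Timp3 symbols do not overlap between groups; the dotted line marks 1 TPM.

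By level, the set was led by inhibitors and by a pair of proteases that work together at the cell surface. The order of mean levels in overexpression was Timp2, Timp3, Mmp2, Mmp14, Mmp11, Mmp13, Mmp19, Mmp3, Mmp9 and Timp4. In wild type it was the same except that Mmp2 came before Timp3. In overexpression the ranges of Timp3 and Mmp2, of Mmp3 and Mmp9, and of Mmp9 and Timp4 overlapped, and in wild type those of Mmp19 and Mmp3 and of Mmp9 and Timp4 did. All other neighbours in the order stood apart in their 3 libraries. By wild-type level among all 36144 genes, Timp2 ranked 87, Mmp2 ranked 530 and Mmp9 ranked 14004.

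The gelatinases cut denatured collagen and basement membrane collagen. Mmp2 (ENSMUSG00000031740.8; chromosome 8, 92827290 to 92853421), which encodes gelatinase A, had 239.6, 232.6 and 280.5 TPM in overexpression replicates 1, 2 and 3, against 268, 271 and 287 TPM in wild type. The first 2 overexpression libraries were below every wild-type library and the third lay among them. The means were 251 ± 25.9 TPM in overexpression and 275 ± 9.92 TPM in wild type (SD, n = 3 each). The log2 difference was -0.14 ± 0.08 (SE; limma adjusted p = 0.395). Without overexpression replicate 3 the fold change was -0.22, and limma gave an adjusted p of 0.095. Mmp9 (chromosome 2, 164940326 to 164955850), the gelatinase B gene known from neutrophils and macrophages, had 0.87, 0.16 and 0.12 TPM in overexpression replicates 1, 2 and 3, against 0.55, 0.64 and 0.45 TPM in wild type. Its libraries overlapped, with overexpression replicate 1 the highest and replicates 2 and 3 the lowest. A two-sided exact permutation test gave p = 0.5 for Mmp9, where 3 against 3 cannot go below 0.1.

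Membrane type 1 metalloproteinase, encoded by Mmp14 (ENSMUSG00000000957.11; chromosome 14, 54431598 to 54442456), is anchored in the membrane, cuts fibrillar collagen around the cell and activates pro-gelatinase A. It had 165, 183 and 152 TPM in overexpression replicates 1, 2 and 3, against 133, 136 and 138 TPM in wild type. Every overexpression library was above every wild-type library, and the wild-type libraries lay close together. The mean was 167 ± 15.7 TPM in overexpression and 136 ± 2.10 TPM in wild type (SD, n = 3 each), 1.23 times as high. The log2 fold change was 0.29 ± 0.08 (SE; limma adjusted p = 0.14), and without overexpression replicate 3 it was 0.36 with a limma adjusted p of 0.0373.

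Mmp2 and Mmp14, enzyme and activator, lay on opposite sides of their wild-type means in overexpression replicates 1 and 2. In replicate 3 both lay above, Mmp2 by 0.03 and Mmp14 by 0.16 on the log2(TPM + 1) scale. Mmp2 made up 53.7%, 51.3% and 60.6% of the summed TPM of the 7 MMP genes in overexpression replicates 1, 2 and 3, against 62.0%, 62.0% and 63.2% in wild type. Mmp14 made up 37.1%, 40.4% and 32.8% of that sum in overexpression, against 30.9%, 31.2% and 30.3% in wild type. The shares of both genes did not overlap between groups. Both genes make up most of this sum, so a higher share of Mmp14 goes with a lower share of Mmp2. The 2 results are therefore not separate, and the sum leaves out the other family genes. The test of this difference of shares was not run.

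The collagenase gene Mmp13 (ENSMUSG00000050578.10; chromosome 9, 7272514 to 7283333), whose enzyme cleaves fibrillar collagens and is known from hypertrophic cartilage and bone, had 16.9, 12.0 and 6.94 TPM in overexpression replicates 1, 2 and 3. Wild-type replicates 1, 2 and 3 had 4.45, 6.35 and 5.43 TPM. Overexpression replicate 3 exceeded the highest wild-type library by a small margin, and replicate 1 was far above it. The mean was 11.9 ± 4.97 TPM in overexpression and 5.41 ± 0.95 TPM in wild type (SD, n = 3 each), 2.21 times as high. The log2 fold change was 0.95 ± 0.28 (SE; limma adjusted p = 0.155). It was 1.26 without overexpression replicate 3, with a limma adjusted p of 0.0154.

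Mmp3 (ENSMUSG00000043613.8; chromosome 9, 7445822 to 7455975), the stromelysin gene, whose enzyme cuts proteoglycans and opens other proenzymes, was barely detected. It had 1.41, 0.48 and 1.27 TPM in overexpression replicates 1, 2 and 3, against 1.31, 1.15 and 0.94 TPM in wild type. The groups overlapped, and overexpression replicate 2 was the lowest library. The log2 fold change was -0.09, with a 95% interval of -0.65 to 0.47 (limma adjusted p = 0.876), and its sign turned without overexpression replicate 2 and under library weights.

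Mmp19 (ENSMUSG00000025355.7; chromosome 10, 128790910 to 128800827), whose secreted enzyme cuts basement membrane proteins and aggrecan, had the largest log2 fold change of the 8 tested genes. It had 4.09, 5.78 and 2.84 TPM in overexpression replicates 1, 2 and 3, against 1.03, 1.77 and 1.12 TPM in wild type. All overexpression libraries were above all wild-type libraries. The mean was 4.24 ± 1.48 TPM in overexpression and 1.31 ± 0.40 TPM in wild type (SD, n = 3 each), 3.24 times as high. The log2 fold change was 1.16 ± 0.24 (SE; limma adjusted p = 0.131), and 1.36 without overexpression replicate 3, with a limma adjusted p of 0.0202. The gene overlaps the coding gene Tmem198b in the reference, which stood at 15.97, 20.6 and 15.9 TPM in overexpression replicates 1, 2 and 3 and at 13.8, 17.7 and 17.0 TPM in wild type. Whether reads of the shared span were divided correctly was not tested.

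Mmp11 (ENSMUSG00000000901.17; chromosome 10, 75923221 to 75932502) encodes stromelysin 3, which is activated by furin inside the cell. It had 17.9, 19.1 and 19.4 TPM in overexpression replicates 1, 2 and 3, against 23.7, 19.9 and 21.6 TPM in wild type. The overexpression libraries were all lower, though replicate 3 and wild-type replicate 2 nearly met. The log2 fold change was -0.19 ± 0.09 (SE; limma adjusted p = 0.281), and -0.22 without overexpression replicate 3 (limma adjusted p = 0.243).

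**Figure D2:**
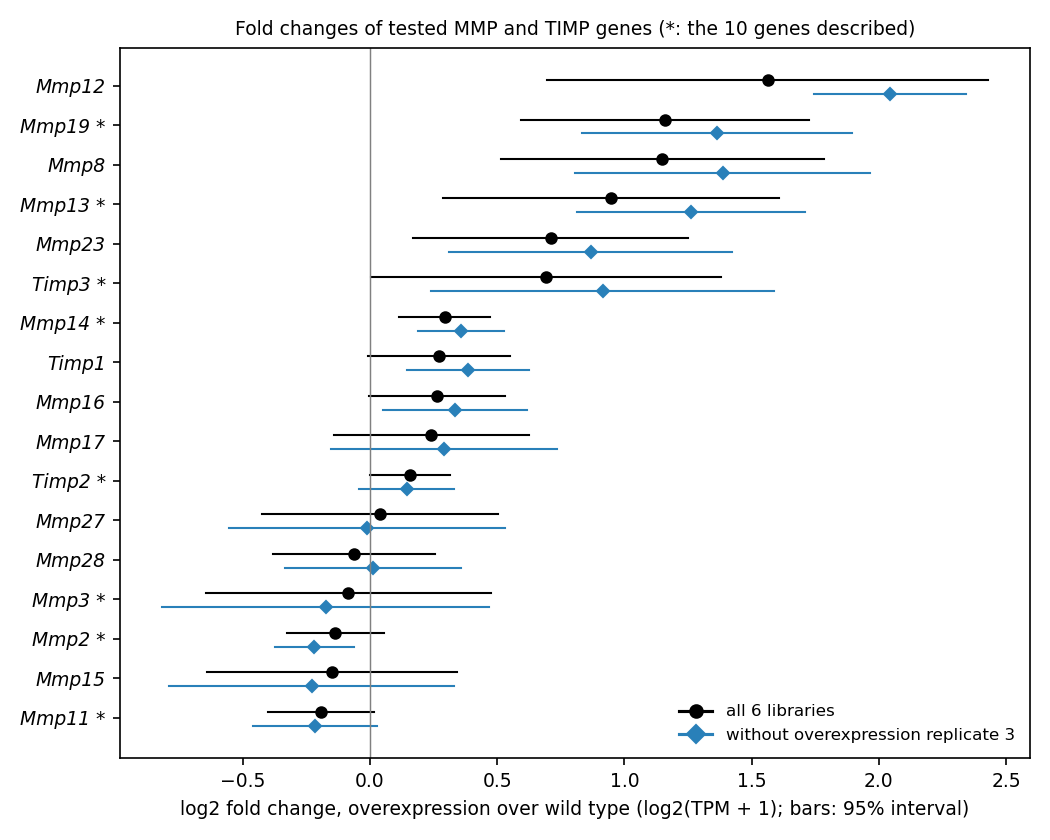
log2 fold change of overexpression over wild type on the log2(TPM + 1) scale, with 95% limma intervals, for the 17 tested MMP and TIMP genes, from all 6 libraries (black circles) and without overexpression replicate 3 (blue diamonds). Genes with a star are among the 10 described. Mmp19 has the highest starred value, 1.16, and Mmp11 the lowest, -0.19.

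Of the inhibitors, Timp2 (ENSMUSG00000017466.9; chromosome 11, 118301061 to 118355411), which binds Mmp14 and pro-gelatinase A, was the most abundant gene of the set and overlaps Cep295nl in the reference. It had 1302, 1285 and 1329 TPM in overexpression replicates 1, 2 and 3, against 1243, 1186 and 1089.7 TPM in wild type. The overexpression libraries were all above the wild-type ones and close to each other. The means were 1305 ± 22.0 TPM in overexpression and 1173 ± 77.3 TPM in wild type (SD, n = 3 each). Their log2 difference was 0.16 ± 0.07 (SE; limma adjusted p = 0.256). The fold change was 0.08 under quantile normalisation, about the size of the SE. Without overexpression replicate 3 the log2 fold change was 0.14 (limma adjusted p = 0.307).

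Timp3 (ENSMUSG00000020044.13; chromosome 10, 86300412 to 86349505), the inhibitor that binds to the matrix and also blocks ADAM and ADAMTS proteases, had 217, 459 and 198 TPM in overexpression replicates 1, 2 and 3. Wild-type replicates 1, 2 and 3 had 171, 182 and 149 TPM. All overexpression libraries were above all wild-type libraries, and replicate 2 was more than 2 times as high as the next. The mean was 291 ± 146 TPM in overexpression and 168 ± 16.9 TPM in wild type (SD, n = 3 each). The log2 fold change was 0.69 ± 0.29 (SE; limma adjusted p = 0.255), 0.31 without overexpression replicate 2 and 0.91 without replicate 3, and it passed in neither. Timp3 lies within the span of Syn3 in the reference, which stood at 0.60 to 0.89 TPM in overexpression libraries and 0.65 to 1.68 TPM in wild type.

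Timp4 (chromosome 6, 115244444 to 115252205), a TIMP known from heart and vessels, had 0.25, 0.16 and 0.23 TPM in overexpression replicates 1, 2 and 3, against 0.37, 0.22 and 0.64 TPM in wild type. The groups overlapped, and a two-sided exact permutation test gave p = 0.3. It lies within the span of Syn2, and at such low values no fold change is given.

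The balance of the set lay on the inhibitor side in every library. The summed level of the 7 MMP genes was 446, 454 and 463 TPM in overexpression replicates 1, 2 and 3, against 432, 437 and 454 TPM in wild type. The 3 TIMP genes summed to 1519, 1745 and 1527 TPM in overexpression, against 1414, 1368 and 1239.6 TPM in wild type. The ratio of MMP to TIMP sums was 0.294, 0.260 and 0.303 in overexpression and 0.306, 0.319 and 0.366 in wild type, with means of 0.286 ± 0.0228 in overexpression and 0.330 ± 0.0315 in wild type (SD, n = 3 each). For the genes in these sums, every overexpression library had a lower ratio than every wild-type library. The margin between the nearest 2 libraries was smaller than the SD of either group. The difference of the means, overexpression minus wild type, was -0.0447, and -0.0269 without wild-type replicate 3. Without Mmp2 and Timp2 the ratios overlapped, at 0.952, 0.481 and 0.920 in overexpression and 0.959, 0.908 and 1.115 in wild type. Timp2 made up 73.7% to 87.9% of the TIMP sum over the 6 libraries. The sums leave out the other family genes, some of them abundant. Timp1 averaged 734 TPM in overexpression and 606 TPM in wild type. Mmp12 averaged 107 TPM in overexpression and 31.9 TPM in wild type. With the 17 other family genes added to the sums, the ratios overlapped between groups, so the lower ratio holds for the chosen genes only. No test of either ratio was run. These are RNA levels, and neither protein nor enzyme activity was measured.

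**Figure D3:**
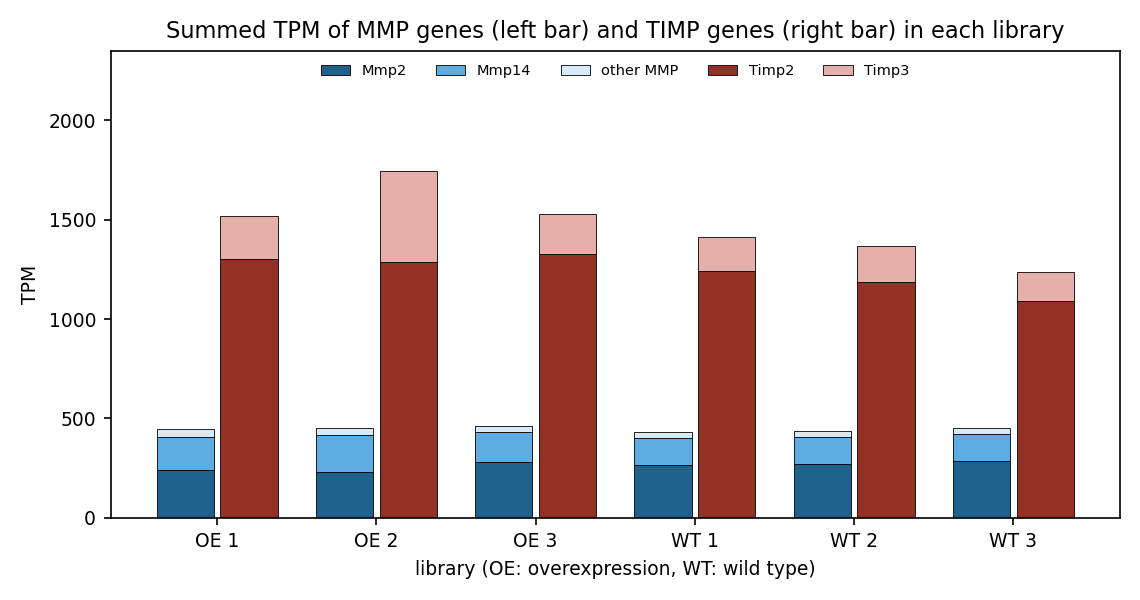
Stacked TPM of the MMP genes (left bar) and TIMP genes (right bar) in each library, overexpression libraries first; Mmp2 and Mmp14 are shown apart from the other 5 MMP genes, and Timp4, below 1 TPM, is not drawn. The TIMP bar is higher than the MMP bar in all 6 libraries, with overexpression replicate 2 highest through Timp3 at 459 TPM.

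Within the overexpression group the genes did not follow one another in a single pattern. Relative to the wild-type mean on the log2(TPM + 1) scale, Mmp13 was 1.49, 1.03 and 0.32 higher in replicates 1, 2 and 3. Mmp19 was 1.16, 1.57 and 0.75 higher in the same replicates, and Timp3 was 0.37, 1.45 and 0.25 higher. Over the 28 pairs of the 8 tested genes, Pearson's r over the 6 libraries of both groups had a median of -0.03. Above 0.8 stood 5 pairs, all among Mmp13, Mmp14, Mmp19 and Timp3. At the other end, r was -0.84 to -0.82 for Mmp2 with each of Mmp13, Mmp14, Mmp19 and Timp3. It was -0.88 for Mmp11 with Mmp13 and -0.84 for Mmp11 with Mmp19. The median thus lies between strongly positive and strongly negative pairs. These libraries share their 2 groups, so such values describe them and no more. Mmp13 was highest in replicate 1, and Mmp19, Mmp14 and Timp3 were highest in replicate 2. The macrophage sum was 2.40, 2.09 and 0.81 above its wild-type mean in overexpression replicates 1, 2 and 3, highest in replicate 1. The smooth muscle sum was 0.31, 0.75 and 0.17 above its own, and the sum of 9 chondrocyte markers 2.06, 3.10 and 0.98 above, both highest in replicate 2. Col2a1 made up most of the chondrocyte sum in overexpression, at 91.2, 206 and 33.0 TPM in replicates 1, 2 and 3. Of the 9 markers, 5 reached a mean of 1 TPM, and Acan among these overlapped between groups. Of the defining markers, Cd163 of macrophages was below 0.1 TPM and Cnmd of chondrocytes was listed at 0 in every library. The endothelial sum was -0.60, -1.05 and -0.32 from its own wild-type mean. The part of these cell type markers in the differences of the protease and inhibitor genes was not tested.

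**Figure D4:**
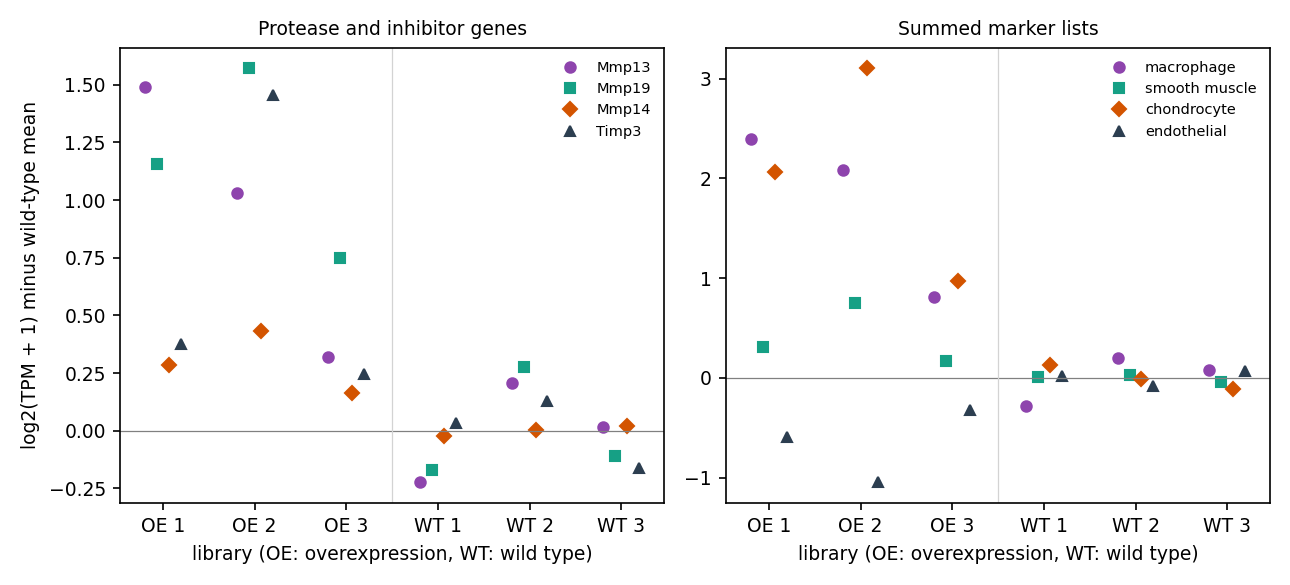
Left, log2(TPM + 1) minus its wild-type mean for Mmp13, Mmp19, Mmp14 and Timp3 in each library; right, the same for the summed TPM of the macrophage, smooth muscle, chondrocyte and endothelial marker lists, on its own axis. Overexpression replicate 3 is the overexpression library nearest to 0 for all 8 quantities; Mmp13 and the macrophage sum are highest in replicate 1, the other 3 genes in replicate 2.

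By the naming rule for similar patterns, the genes with the highest Pearson correlation to Mmp19 over the 6 libraries were Aldh3b1 (0.997), Mlec (0.997) and Lama2 (0.994), a laminin chain gene. Those nearest to Timp3 were Prl2c3 (0.995), Idi1 (0.995), an isopentenyl isomerase gene of sterol synthesis, and Serinc2 (0.995). These values describe 6 libraries that fall into 2 groups. A correlation of at least 0.95 was reached by 207 of 10338 candidate genes with Mmp19 and by 176 with Timp3, so the named genes are not alone at that level.

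Of the 17 other family genes, 9 were tested, 0 were called by limma with all libraries, and 3 were higher in overexpression at an unadjusted p under 0.05 (Mmp12, Mmp8 and Mmp23), where 10.6% of all genes tested were. Mmp12 and Mmp8 lie in the chromosome 9 run with Mmp13, and Mmp23 lies on chromosome 4. Mmp12, the macrophage elastase gene next to Mmp13, had 154, 117 and 49.0 TPM in overexpression replicates 1, 2 and 3, against 29.6, 33.1 and 33.1 TPM in wild type. Its log2 fold change was 1.56 ± 0.37 (SE; limma adjusted p = 0.131). Mmp8, the gene of neutrophil collagenase, had 5.18, 2.88 and 1.99 TPM in overexpression replicates 1, 2 and 3, against 0.86, 0.76 and 1.005 TPM in wild type (log2 fold change 1.15; limma adjusted p = 0.131). Mmp12 and Mmp8 lay above wild type in every overexpression library, and both were highest in replicate 1, as Mmp13 and the macrophage sum were. Mmp8 passed the minimum of 1 TPM only through its overexpression libraries, with a wild-type mean of 0.88 TPM. Its count as higher is therefore partly set by that filter. Of the neutrophil markers, 4 were at 0 as given above, while Csf3r had 1.11, 0.62 and 0.10 TPM in overexpression replicates 1, 2 and 3, against 0.016, 0.24 and 0.11 TPM in wild type. Csf3r was highest in overexpression replicate 1, as Mmp8 was, and its part in the Mmp8 result was not tested. Other markers of that list had lower means in overexpression, Ly6g with 0.10 TPM against 0.63 TPM in wild type and Ltf with 0.29 TPM against 0.61 TPM. None of the 10 neutrophil markers reached a mean of 1 TPM. Without overexpression replicate 3, limma called Mmp12 and Mmp8 higher, with adjusted p-values of 0.00109 for Mmp12 and 0.0253 for Mmp8.

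Along the run, the difference was not shared by all genes. Of its 10 genes 5 were tested, and Mmp13, Mmp12 and Mmp8 did not overlap between groups, where 27.2% of all genes tested did not and 14.3% had overexpression above. Mmp3 and Mmp27, which lie between and beside those 3 genes, overlapped. Mmp8 counts here with the limit given above, that it was tested only through its overexpression level. Mmp27 had a mean of 2.50 ± 0.77 TPM in overexpression and 2.35 ± 0.18 TPM in wild type (SD, n = 3 each). Mmp1a was listed at 0 in every library, and Mmp1b, Mmp7, Mmp10 and Mmp20 were below 0.3 TPM in each.

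**Figure D5:**
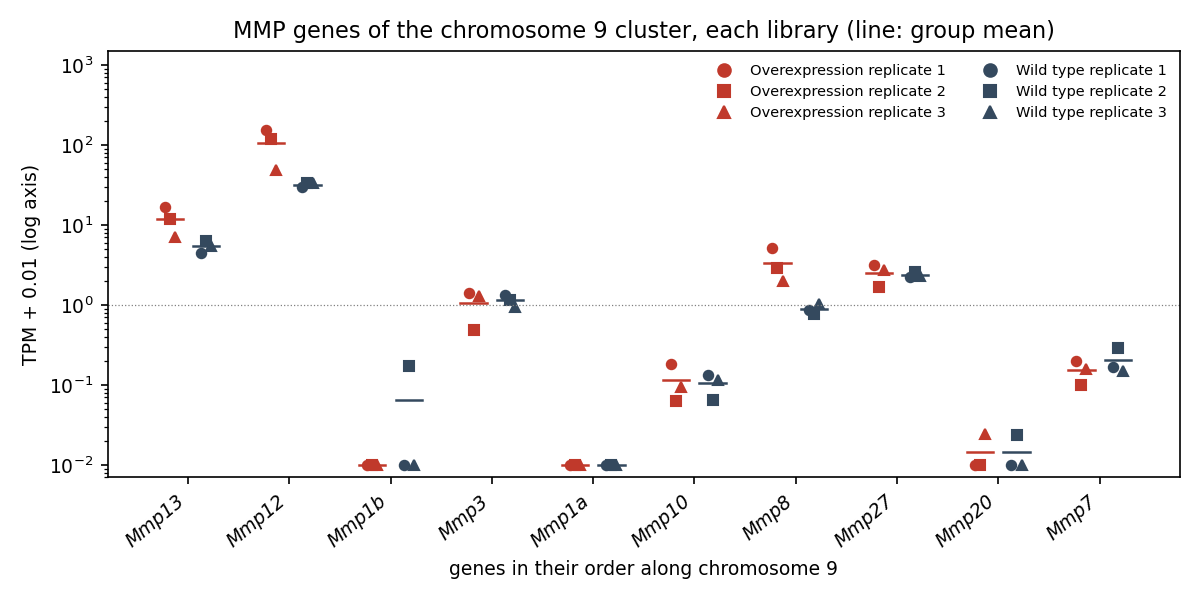
TPM plus 0.01, on a log axis, of the 10 MMP genes of the chromosome 9 run in their order along the chromosome, with overexpression libraries left of wild type and a line at each group mean. Mmp13, Mmp12 and Mmp8 are above wild type in all 3 overexpression libraries; Mmp3 and Mmp27 overlap, and the other 5 genes lie below the dotted line at 1 TPM.

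Outside the run, Mmp23 had 25.9, 42.9 and 23.9 TPM in overexpression replicates 1, 2 and 3, against 17.0, 22.1 and 15.1 TPM in wild type (log2 fold change 0.71; limma adjusted p = 0.179). Like Timp3, it was highest in overexpression replicate 2, and it overlaps Mib2 in the reference. The membrane-type gene Mmp16 averaged 45.2 ± 4.10 TPM in overexpression and 37.6 ± 5.08 TPM in wild type (SD, n = 3 each), and Mmp17, another membrane-type gene, averaged 3.76 ± 0.86 TPM in overexpression and 3.00 ± 0.24 TPM in wild type, with overlap in both genes. The inhibitor gene Timp1 averaged 734 ± 102 TPM in overexpression and 606 ± 64.9 TPM in wild type (SD, n = 3 each), its libraries overlapped, and it lies within the span of Syn1. Mmp15 averaged 1.99 TPM in overexpression and 2.27 TPM in wild type, and Mmp28 averaged 4.87 TPM in overexpression and 5.14 TPM in wild type.

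Genes that activate, restrain or clear these proteases were measured from 3 lists of regulators. Of 14 activators, among them the plasminogen system, 10 were tested and 0 were called by limma, with 2 lower at an unadjusted p under 0.05, where 8.94% of all genes tested were lower and 19.5% had such a p in either direction. Furin, the convertase that opens the membrane-type proenzymes and that of Mmp11, had 80.6, 77.1 and 75.6 TPM in overexpression replicates 1, 2 and 3, against 100.96, 102 and 92.1 TPM in wild type (log2 fold change -0.33; limma adjusted p = 0.128). Klk8, a serine protease gene, averaged 7.76 ± 2.46 TPM in overexpression and 14.1 ± 1.54 TPM in wild type (SD, n = 3 each), and both genes were lower in every overexpression library. The serine protease gene Htra1 averaged 124 TPM in overexpression and 113 TPM in wild type and overlapped. Plg, the plasminogen gene, was listed at 0 in all libraries.

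Of 11 inhibitors, 7 were tested and 0 were called by limma, with 2 higher and 2 lower at an unadjusted p under 0.05, where 10.6% of all genes tested were higher and 8.94% lower. Serpine2, the gene of protease nexin 1, had 136, 245 and 109 TPM in overexpression, against 96.7, 87.4 and 91.3 TPM in wild type (log2 fold change 0.74; limma adjusted p = 0.202). Every overexpression library was above every wild-type library for Serpine2, and replicate 2 was the highest. Tfpi2, a Kunitz-type inhibitor gene, was lower in every overexpression library and averaged 3.36 ± 0.49 TPM in overexpression and 5.69 ± 0.60 TPM in wild type (SD, n = 3 each).

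Of 12 genes for surface docking, induction and clearance, all were tested and 0 were called by limma, with 6 higher at an unadjusted p under 0.05, where 10.6% of all genes tested were. Lrp1, the endocytic receptor that takes up several MMPs and TIMP complexes, had 129, 195 and 71.5 TPM in overexpression replicates 1, 2 and 3, against 54.2, 56.0 and 42.2 TPM in wild type (log2 fold change 1.26; limma adjusted p = 0.14). It was above wild type in every overexpression library, and limma called it without overexpression replicate 3, with an adjusted p of 0.00713. Itgav, the integrin alpha V chain gene, averaged 75.8 ± 2.10 TPM in overexpression and 64.6 ± 4.69 TPM in wild type (SD, n = 3 each). The abundant genes Thbs1, for thrombospondin 1, and Cav1, for caveolin 1, overlapped, with means of 2106 and 1929.8 TPM in overexpression and 2362 and 2096 TPM in wild type.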

How the data were processed

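RNA was measured in 3 libraries per genotype and ATAC-seq in 2 mice per genotype, merged by the authors. The authors deposited TPM per gene, named as kallisto output per the labels. Per the submitters' processing notes the genome was mm10. For kallisto's version, the annotation and the depth, the sources used here give nothing. TPM are relative, and kallisto divides reads shared by overlapping or similar transcripts by estimation. The authors deposited a footprint table with a score and a p-value per motif and a count of bound sites, per the file headers; the authors' p-value was not used.

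The test was limma 3.58.1 (R 4.3.3; lmFit, then eBayes with a trend), two-sided, on log2(TPM + 1) for genes whose mean reached 1 TPM, with Benjamini-Hochberg adjustment over 13131 genes and a threshold of 0.05. Fold changes on this scale understate those of low genes. Mmp9 and Timp4, below that level, had an exact permutation test. No set test was run. A run of the fit on simulated data used the spread of the wild-type libraries only, so it says nothing about the spread of the overexpression libraries. The pseudocount, filter, scaling, weights, trend, block and each library were varied. All libraries carry 1 batch label.

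Groups came from the genotype label and replicate numbers from the title. The members and lists were chosen with earlier results of these data known. Named are the 10 genes; other family genes whose mean reached 1 TPM; per regulator list the 2 smallest p and the 2 most abundant; and the 3 genes most like the MMP and the TIMP with the smallest p, among genes whose mean reached 5 TPM and that are not predicted models. Genes that overlap a named gene (Tmem198b, Syn3, Cep295nl, Syn2, Syn1 and Mib2) were named outside this rule, after their values were seen. So were Plg, the markers Acta2, Smtn, Col2a1, Acan, Cd163, Mertk, Cnmd and those of neutrophils, and family genes listed near 0. A gene that the rule names is not reported here. Promoters came from RefSeq (GRCm38.p6). Gene positions were taken from a RefSeq table of the same assembly, and Ensembl identifiers from a table of gene names.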

Additional observations from a re-analysis of the deposited data

How the results depend on the processing

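The count of genes called by limma, 2 with all libraries, was 2728 with library weights, 1 with a minimum of 5 TPM, and 1 to 828 when 1 library was left out; 828 came without overexpression replicate 3. Of the 8 members 0 were called, against 5 (Mmp13, Mmp14, Mmp19 and Timp2 higher, Mmp2 lower) with library weights and 0 to 3 when 1 library was left out. Library weights gave overexpression replicate 1 a weight of 5.66 and the other 5 libraries 0.28 to 1.54, so that fit rests largely on 1 library. Members at an unadjusted p under 0.05, 5 in the reported fit, were 3 under median-of-ratios scaling, quantile normalisation, no filter and no trend. In each of those settings Timp2 and Timp3 dropped out, and Mmp13, Mmp14 and Mmp19 stayed. The count was 7 (5 higher, 2 lower) with library weights, and 3 to 5 with 1 library left out. The median log2 fold change of the members was 0.035 with no filter, which adds Mmp9 and Timp4. The MMP to TIMP ratio, overexpression minus wild type, was -0.0447, -0.0569 to -0.0269 with 1 library left out, and -0.21 without Mmp2 and Timp2. The median correlation of the 28 pairs of tested members was -0.032, with -0.073 at a pseudocount of 0.1 and -0.074 without overexpression replicate 3. Signs turned for Mmp3 (0.16 with library weights, -0.22 to 0.14 with 1 library left out), Mmp15 (0.016 with library weights, -0.26 to 0.043 with 1 library left out), Mmp27 (-0.055 under quantile normalisation, -0.099 to 0.23 with 1 library left out), Mmp28 (-0.15 to 0.011 with 1 library left out) and Htra1 (-0.071 with library weights). The cause was not tested. Among 371 values of 27 genes under alternatives, 337 kept direction and call. Same-numbered mice did not deviate together (correlations of -0.022, 0.058 and 0.018), and with the replicate number as a block 1 gene and no member was called. The adjusted p of Mmp19 ranged from 0.00666 to 0.354 over alternatives, of Mmp13 from 0.00872 to 0.363 and of Mmp14 from 0.00852 to 0.356. With TPM alone, what depth limits cannot be stated.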
